A study of Mus musculus with 3 samples.

Results

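The cells described here are the beta cells that still held a large share of *Ins1* 1 week after Taf4 inactivation. They are cell barcodes of the 1-week library with at least 8000 UMIs (unique molecular identifiers, 1 per captured transcript), mt- transcripts under 15%, *Ins2* at 5% or more, *Gcg* under 2%, *Sst* under 1%, *Ddit3* under 0.25% and *Ins1* at 4% or more of all UMIs. Of the 25524 barcodes of the series, 2295 belonged to the 1-week library, and 87 of these met every limit. They were compared with 249 barcodes of the same library that met the same limits but had *Ins1* under 4%, called *Ins1*-low below. The members were therefore chosen by *Ins1* itself, and within limits on *Ins2*, *Gcg*, *Sst*, *Ddit3* and mt- transcripts, so the values of these genes describe the selection.

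Islets were taken from male C57/Bl6 mice, dissociated, sorted for live cells and captured on the 10X Genomics Chromium system with 3′ libraries. The mutant mice carried floxed *Taf4* alleles and an *Ins1*::Cre-ERT2 transgene, a tamoxifen-activated recombinase made in beta cells, and lost *Taf4* as adults after tamoxifen. 1 library came from 300 islets pooled from 2 mutant mice at 1 week and 1 from 300 islets pooled from 2 mutant mice at 5 weeks, and the WT library from 300 islets of 1 mouse labelled WT, for which the labels give no driver or tamoxifen. Each condition is 1 library, the barcodes carry no mark of the mouse they came from, and cells are not replicates, so no difference between groups was tested and every interval below covers counting error only. Because the transgene is driven by the *Ins1* promoter, the selection gene and the driver gene are the same.

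Taf4 is a subunit of TFIID, the complex that recognises core promoters and starts transcription by RNA polymerase II. Beta cells make insulin from *Ins1* and *Ins2* in the mouse. Preproinsulin is folded in the endoplasmic reticulum (ER), cut by prohormone convertases and stored in granules that are released when glucose is sensed. Mature beta cells are known for *Mafa*, *Pdx1* and *Nkx6-1* among their transcription factors, for the glucose transporter *Slc2a2* and for the islet glucose-6-phosphatase *G6pc2*. When unfolded protein or other stress activates the integrated stress response, cells raise a set of genes that includes *Ddit3*, *Trib3*, *Nupr1* and *Ppp1r15a*.

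To show the region from which the selection gene is transcribed, and those of the leading genes *G6pc2* and *Mrln*, the 250 bases before each listed transcription start are given 5′ to 3′ from RefSeq on GRCm38.p6 (mm10). Capitals mark the letters of 4 motifs searched on both strands: the insulin E-box core CATCTG, the C1 core TGCAGC, the Maf core TGCTGA and the TATA box core TATAAA.
*Ins1*, chr19:52264047-52264296, plus strand: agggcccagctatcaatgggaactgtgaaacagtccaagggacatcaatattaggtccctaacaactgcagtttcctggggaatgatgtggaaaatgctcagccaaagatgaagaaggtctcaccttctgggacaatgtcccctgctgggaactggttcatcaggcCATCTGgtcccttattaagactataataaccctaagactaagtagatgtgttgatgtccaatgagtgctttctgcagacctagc
*G6pc2*, first listed start, chr2:69210823-69211072, plus strand: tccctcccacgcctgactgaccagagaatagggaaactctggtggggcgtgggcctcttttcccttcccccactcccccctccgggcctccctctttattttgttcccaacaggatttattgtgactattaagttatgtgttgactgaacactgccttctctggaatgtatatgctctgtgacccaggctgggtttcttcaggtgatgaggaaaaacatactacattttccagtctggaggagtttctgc
*G6pc2*, second listed start, chr2:69219699-69219948, plus strand: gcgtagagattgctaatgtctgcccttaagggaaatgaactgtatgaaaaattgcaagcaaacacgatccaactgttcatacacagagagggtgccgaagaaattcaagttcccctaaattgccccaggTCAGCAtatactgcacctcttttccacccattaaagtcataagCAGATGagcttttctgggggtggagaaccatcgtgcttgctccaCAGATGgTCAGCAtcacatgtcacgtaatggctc
*Mrln*, chr10:70204414-70204663, plus strand: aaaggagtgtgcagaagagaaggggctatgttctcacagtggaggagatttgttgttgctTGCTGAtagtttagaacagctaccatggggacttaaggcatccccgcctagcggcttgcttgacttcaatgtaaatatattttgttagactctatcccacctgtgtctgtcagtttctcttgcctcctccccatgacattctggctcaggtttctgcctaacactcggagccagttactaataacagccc
The *Ins1* window held 1 E-box core and none of the other 3 motifs. The second *G6pc2* window held 2 E-box cores and 2 Maf cores, the first held none of the 4, and the *Mrln* window held 1 Maf core. Over all 32851 windows of this length, 14.4% held the E-box core, 16.1% the Maf core, 16.5% the C1 core and 12.4% the TATA box core. Of the 15 genes that ranked highest in the members, 9 had an entry, with 12 starts between them. The E-box core was found for 3 of the 9 genes, the Maf core for 5, the C1 core for 4 and the TATA box core for 1. These counts are per gene, with a match at any of its starts, whereas the shares above are per window, so they are not directly comparable. A match is a description of the letters only, and *Ins1* was no candidate for these counts because it chose the cells.

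The *Ins1* share formed a continuum with no gap at the limit. It ran from 4.07% to 14.2% in the members, with a median of 7.14%, and had a median of 0.658% in the *Ins1*-low cells. The nearest members stood at 4.07%, 4.11% and 4.17%, and the nearest cells outside at 3.999%, 3.998% and 3.96%. In the WT library, cells within the same limits but with at least 2000 UMIs had a median *Ins1* share of 15.5%, and the 5th percentile of those 2982 cells was 11.6%. At 5 weeks the median over 4320 such cells was 1.93%, with a highest value of 20.6%. The members thus lay between the WT and the 5-week median. The 156 barcodes of the 1-week library with *Gcg* at 10% or more held a median of 6 *Ins1* UMIs at a median depth of 22652 UMIs. Their *Ins1* share was at most 0.0956%, below every member but above the 5th percentile of the *Ins1*-low cells, 0.0389%. Whether these UMIs came from free RNA was not tested.

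**Figure D1:**
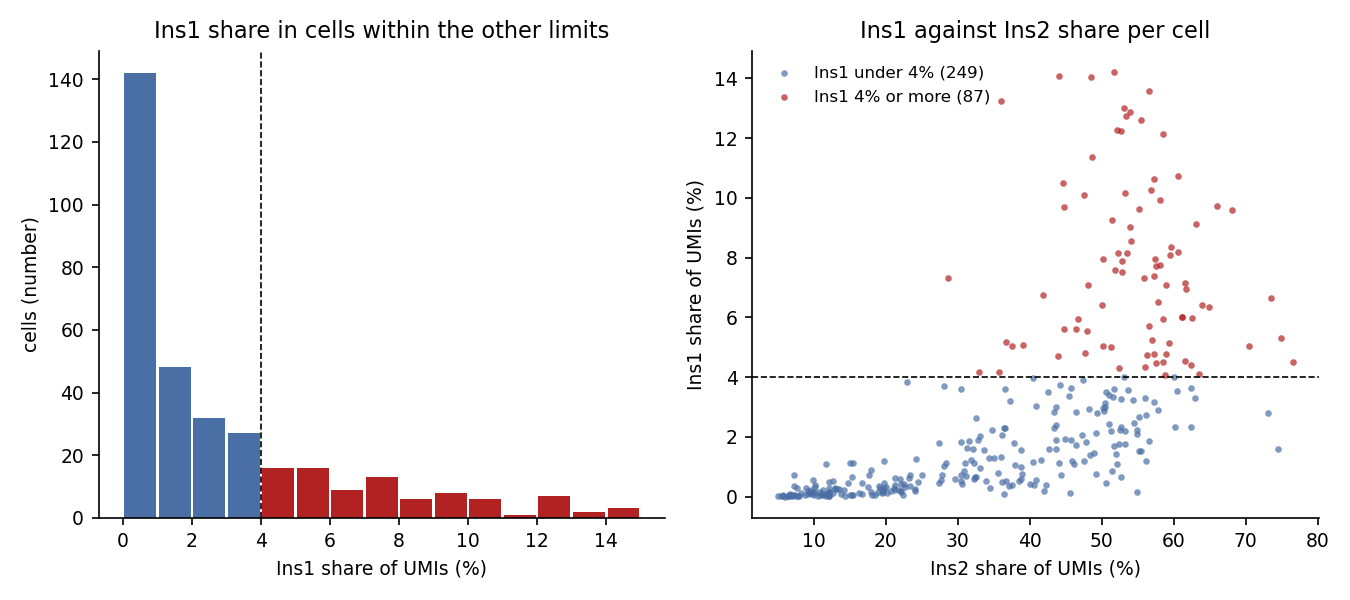
*Ins1* share of UMIs in the 336 cells of the 1-week library that met all limits other than *Ins1*. Left, number of cells in steps of 1 percentage point; right, *Ins1* share against *Ins2* share of UMIs, 1 point per cell, members in red and *Ins1*-low cells in blue, with the 4% limit dashed. The counts fall from 142 cells under 1% without a break at the limit, and all members have an *Ins2* share of at least 28.7%.

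The members also held the larger *Ins2* shares, with 28.7% as the lowest, 55.9% as the median and 76.5% as the highest, against 5.00%, 30.9% and 74.5% in the *Ins1*-low cells. The ranges overlapped, and the lower quartile of the *Ins1*-low cells, 14.7%, lay below every member. The mean number of *Ins2* UMIs per cell was 23847 in the members and 9617 in the *Ins1*-low cells, a ratio of 2.48. The mean of all UMIs that belonged to neither insulin gene was 16074 and 17827, a ratio of 0.902, so the deeper members (median 43721 UMIs against 26375) held more insulin UMIs and not more of the rest. The median number of detected genes was 4790 and 4898. As a share of both insulin genes together, *Ins1* had a median of 11.8% in the members, 2.50% in the *Ins1*-low cells, 25.9% in WT and 3.18% at 5 weeks.

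The insulin share sets the scale for every other gene. *Ins2* made up 55.0% of the summed UMIs of the members and 34.6% of those of the *Ins1*-low cells. Relative to all UMIs other than *Ins1*, the median gene was therefore at a log2 ratio of -0.74 (members over *Ins1*-low), and relative to the UMIs of neither insulin gene, called non-insulin UMIs below, at -0.05. The scales differ by 0.69 for every gene, so a gene whose non-insulin log2 ratio lies between 0 and 0.69 is above 0 on one scale and below 0 on the other. Among 4741 genes with at least 200 UMIs over both groups, 9 genes (0.19%) were at least 1.5-fold higher in the members relative to UMIs other than *Ins1*, and 3306 (69.7%) at least 1.5-fold lower. At least 2-fold, the counts were 2 (0.0422%) and 896 (18.9%). Relative to non-insulin UMIs, 152 genes (3.21%) were at least 1.5-fold higher and 234 (4.94%) at least 1.5-fold lower, and at least 2-fold 24 (0.506%) and 44 (0.928%). 88 genes were above 0 on both scales. On GRCm38.p6 the genes that the text describes most fully are annotated at chr2:69211073-69227993 (*G6pc2*), chr15:75745501-75748321 (*Mafa*), chr10:70204664-70219711 (*Mrln*), chr4:136143822-136145392 (*Id3*) and chr7:126623246-126625470 (*Nupr1*). Levels below are UMIs per 1000000 non-insulin UMIs, and log2 ratios are on that scale unless stated.

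The share of *Ddit3*, which the rule limits, also differed between the groups and so describes the selection. *Ddit3*, the stress-induced transcription factor also called Chop, had a median share of 0.00743% in the members and 0.115% in the *Ins1*-low cells, although both groups were limited to under 0.25%. That limit removed 164 barcodes, of which 1 had *Ins1* at 4% or more. With *Ddit3* held under 0.05%, 70 members and 70 *Ins1*-low cells were left. Of the 152 higher genes, 76 still had 200 UMIs there, and 17 of these stayed at least 1.5-fold higher, while of the 234 lower genes 52 could be measured and 10 stayed at least 1.5-fold lower. Over all 1834 genes measured in this restricted comparison, called low-*Ddit3* below, 30 (1.64%) were at least 1.5-fold higher and 26 (1.42%) at least 1.5-fold lower. Its values are given beside those of the leading genes and lists, and the part of stress in the results was not tested.

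*G6pc2*, which hydrolyses glucose-6-phosphate in the ER and opposes glucokinase, was among the genes that stood highest with *Ins1*. Per cell its level in the members ran from 0 over a median of 392 to 1920, and in the *Ins1*-low cells from 0 over 45.1 to 1446. The groups overlapped, but the lower quartile of the members (197) lay above the upper quartile of the *Ins1*-low cells (194). Summed over cells, the level was 480 (95% interval 444 to 518) against 135 (124 to 146), a log2 ratio of 1.83 (1.67 to 1.99), and 1.14 relative to UMIs other than *Ins1*. Its ratio in low-*Ddit3* cells was 0.71 (0.52 to 0.90). The WT cells stood at 1093 and the 5-week cells at 377, so the members held less than WT. The barcodes with *Gcg* at 10% or more had at most 1 *G6pc2* UMI.

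*Mafa*, a transcription factor that activates the insulin genes, had a median per cell of 1315 in the members, from 0 to 6308, and of 284 in the *Ins1*-low cells, from 0 to 5164. The summed levels were 1835 (1764 to 1907) and 661 (637 to 685), a log2 ratio of 1.47 (1.40 to 1.55), and 0.78 relative to UMIs other than *Ins1*. In WT cells the level was 311 and at 5 weeks 543, so both 1-week groups exceeded WT. The log2 ratio in low-*Ddit3* cells was 0.50 (0.40 to 0.59), and relative to UMIs other than *Ins1* its sign turned to -0.10. *Mafa* therefore followed *Ins1* within the 1-week library and did not follow the order of the *Ins1* share across the libraries.

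*Mrln*, which encodes the micropeptide myoregulin known to inhibit the SERCA calcium pump, had the largest ratio. It was counted with 130 UMIs in the members and 89 in the *Ins1*-low cells, levels of 93.0 and 20.1 and a log2 ratio of 2.21 (1.81 to 2.62). Its ratio in low-*Ddit3* cells was 1.24 (0.76 to 1.74). The WT level was 223 and the 5-week level 55.5. *Ero1lb*, the oxidase that helps form the disulfide bonds of proinsulin, stood at a median per cell of 1291 in the members (0 to 3131) against 511 (0 to 3128), with a log2 ratio of 1.24 (1.15 to 1.32), and of 0.51 (0.40 to 0.62) in low-*Ddit3* cells. Its ranges were nearly the same, whereas the lower quartile of the members, 890, exceeded the upper quartile of the *Ins1*-low cells, 735. *Esr1*, the oestrogen receptor alpha, had levels of 192 and 62.6 (1.62, 1.37 to 1.87), but in low-*Ddit3* cells the ratio was 0.20 with an interval from -0.07 to 0.47.

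**Figure D2:**
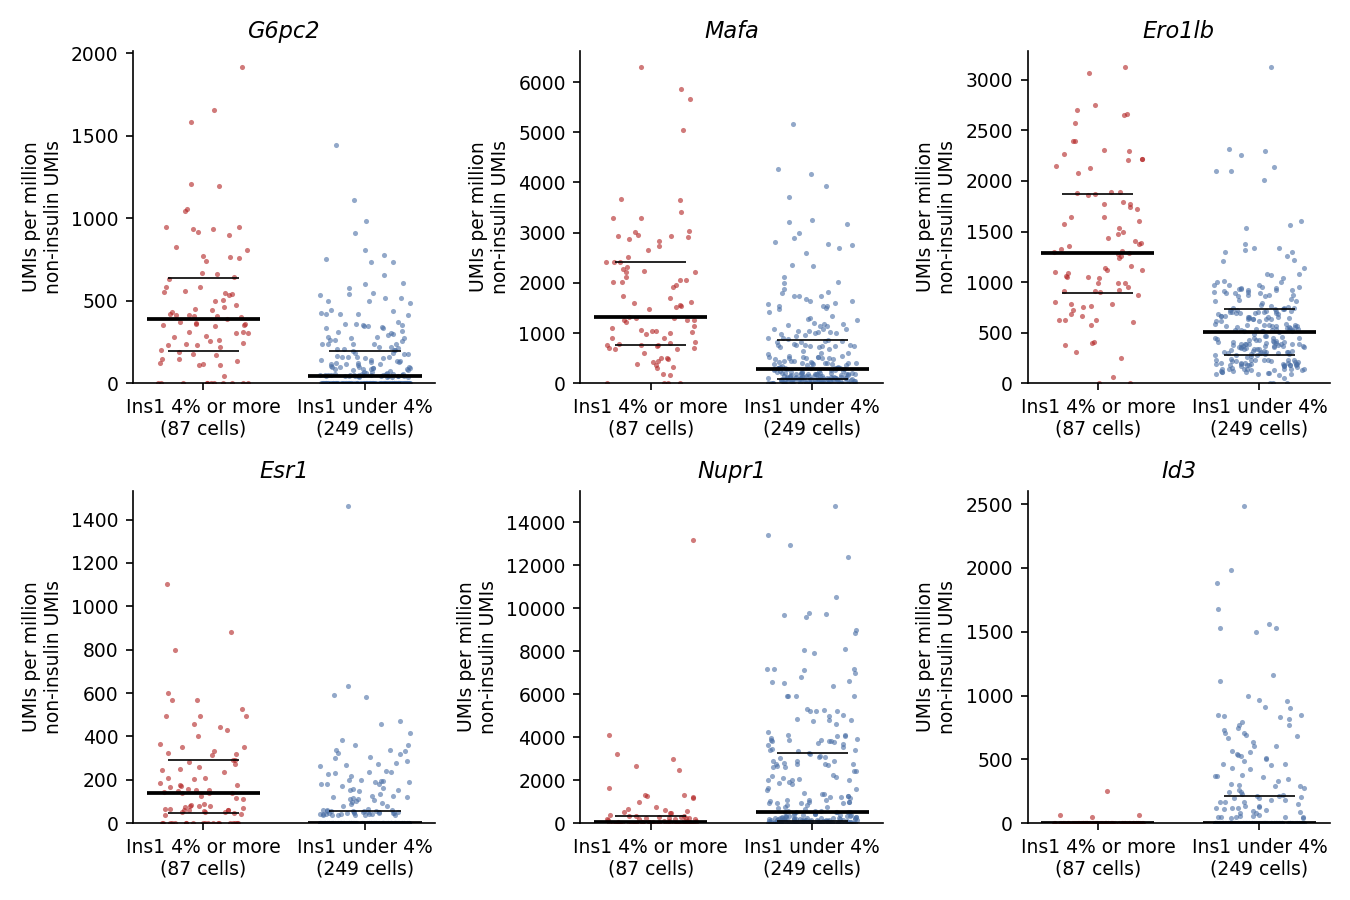
Level per cell, in UMIs per 1000000 non-insulin UMIs, of 6 genes in the 87 members (red) and the 249 *Ins1*-low cells (blue) of the 1-week library. Thick lines are medians and thin lines quartiles; the first 4 genes have higher medians in the members, *Nupr1* has a lower one, and *Id3* was found in 4 members only.

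Of the 15 genes that ranked highest, the others were *Ins2*, the neurotrophin receptor *Ntrk2*, the aromatic amino acid decarboxylase *Ddc*, *C2cd4b*, *Tmsb15b2*, the heparan sulfate sulfotransferase *Hs3st6*, *Ttc28*, *Zc3h3*, the mitochondrial cytochrome oxidase gene *mt-Co2* and *Nipal1*. The 9 genes past 1.5-fold relative to UMIs other than *Ins1* were *Mrln*, *G6pc2*, *Ins2*, *Mafa*, *Esr1*, *Tmsb15b2*, *Hs3st6*, *Zc3h3* and *Nipal1*. *Ddc* had levels of 184 and 77.0 and *Ntrk2* of 257 and 109. *C2cd4b* was at 0.05 (-0.17 to 0.26) in low-*Ddit3* cells, where *Ntrk2* was at 0.64 and *Ddc* at 0.62.

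Some transcription factors of beta cell identity were higher in the members and others were not. Of 20 listed transcription factors, 14 could be measured, and 3 were at least 1.5-fold higher and none lower, beside 3.21% and 4.94% of all genes. Their median log2 ratio was 0.38, beside -0.05 for all genes. The 3 were *Mafa*, *Pdx1* (385 against 234, log2 ratio 0.72, 0.57 to 0.87) and *Pax6* (0.65). *Nkx6-1* stood at 0.49 and *Neurod1* at 0.47, both under 1.5-fold. *Insm1* (-0.09), *Foxa2* (-0.05) and *Rfx6* (-0.23) had intervals that included 0. With *Ddit3* low in both groups, 0 of 10 measured factors passed 1.5-fold in either direction, and *Pdx1* was at 422 in both groups. Relative to UMIs other than *Ins1*, the list median was -0.31, and 2 of the 14 were above 0. Over all 4741 genes the median was -0.74, and 88 were above 0.

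Among 12 measured genes of glucose sensing and ion channels, 3 were higher and 2 lower, with a median of 0.25. For all genes these values were 3.21%, 4.94% and -0.05. The low-*Ddit3* comparison gave 1 of 7 higher, 0 lower and a median of 0.11, beside 1.64%, 1.42% and 0.03 for all genes measured there. *Slc2a2*, the main glucose transporter of mouse beta cells, was at 97.2 in the members and 44.4 in the *Ins1*-low cells (1.13, 0.81 to 1.45), far from the 481 of WT and above the 6.06 of the 5-week cells. With *Ddit3* low in both groups its ratio was 0.86 (0.40 to 1.33). *Gpd2*, of the glycerol phosphate shuttle, was at 0.79. The lower genes were *Got1* of the malate-aspartate shuttle (-0.83) and *Kcnj11*, the pore subunit of the KATP channel (-0.60), while its partner subunit *Abcc8* was at 0.22. *Trpm5*, a cation channel of beta cells, was counted with 25 and 57 UMIs, levels of 17.9 and 12.8 with a ratio whose interval included 0 (-0.26 to 1.18), against 354 in WT. Of 6 measured receptors the fatty acid receptor *Ffar1* was higher (71.5 against 35.8, log2 ratio 1.00), with a ratio of 0.05 in low-*Ddit3* cells.

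Part of the hormones and granule proteins were higher in the members. Of 15 measured genes, 8 were at least 1.5-fold higher and 0 lower, and the median was 0.64, beside 3.21%, 4.94% and -0.05 for all genes. Without *Ins2*, which the selection used, 7 of 14 were at least 1.5-fold higher, 13 were above 0, and the median was 0.55. The 7 were *Ucn3*, a maturity marker that signals to delta cells, the amyloid polypeptide *Iapp* (0.64), the granins *Chga* (0.66) and *Vgf* (0.95), *Pcsk1n* (0.64), *Resp18* (0.92) and the zinc transporter *Slc30a8* (0.69). *Ucn3* was at 161 and 72.8, with a WT level of 325 and a 5-week level of 20.2, and its ratio went from 1.14 to 0.66 (0.32 to 1.01) in low-*Ddit3* cells. *Scgn* was the 1 gene of this list below 0 (-0.31, -0.53 to -0.10). In the low-*Ddit3* comparison, again without *Ins2*, 5 of 12 were higher and 1 lower, with a median of 0.45. All genes measured there had 1.64% higher, 1.42% lower and a median of 0.03. Relative to UMIs other than *Ins1*, 0 of the 14 were at least 1.5-fold higher and 2 at least 1.5-fold lower, with a median of -0.14. For all genes these values were 0.19%, 69.7% and -0.74.

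Prohormone processing gave 3 higher genes of 8, with a median of 0.51: *Ero1lb*, the protease gene *Prss53* (473 against 229) and the convertase *Pcsk1* (0.62). Beside this and the next lists, 3.21% of all genes were higher and 4.94% lower, with a median of -0.05. In low-*Ddit3* cells the shares of all genes were 1.64% and 1.42%, and the median was 0.03. *Prss53* stayed at 0.88 in low-*Ddit3* cells, whereas *Pcsk1* was at 0.04. Among 14 exocytosis genes, *Syt13* (0.82), *Rph3al* (0.69) and *Rab27a* (0.61) were higher and 0 were lower. That list had a median of 0.21, and of 0.22 with 1 of 9 higher in low-*Ddit3* cells. Of 25 measured chaperones and degradation factors 0 were higher and 2 lower, *Hspa5* (1025 against 1642, -0.68) and *Derl1* (-0.70), and the 22 genes of ER translocation had a median of 0.06 with 0 past 1.5-fold. Both lower genes turned in low-*Ddit3* cells to small positive ratios, 0.19 for *Hspa5* and 0.14 for *Derl1*.

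**Figure D3:**
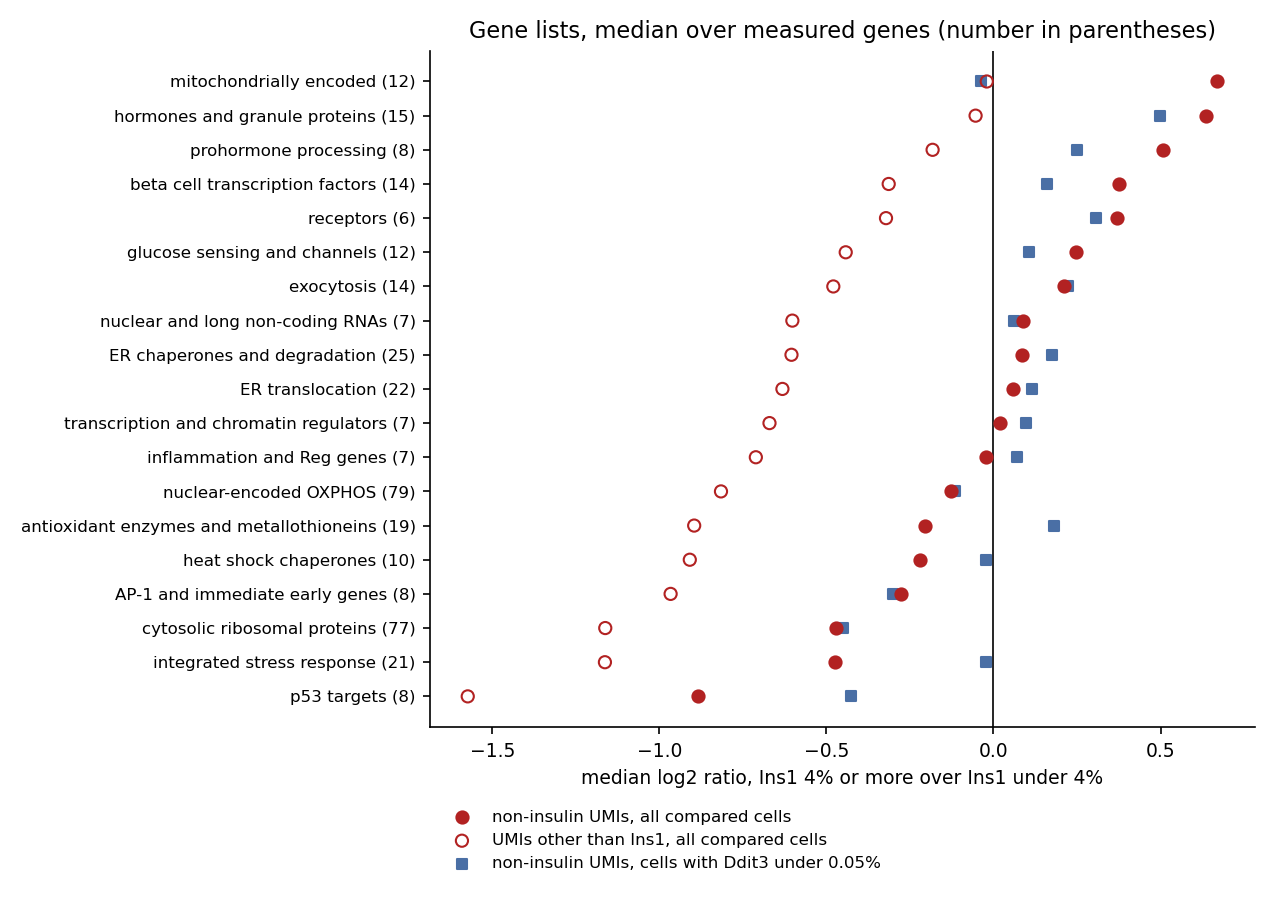
Median log2 ratio of members over *Ins1*-low cells for the gene lists with at least 6 measured genes, of which at least 3 could be measured in low-*Ddit3* cells. Filled circles are relative to non-insulin UMIs and open circles relative to UMIs other than *Ins1*, which lie 0.69 lower, and squares are cells with *Ddit3* under 0.05%. Hormones and granule proteins, *Ins2* included, lie at 0.64 (filled circle) and 0.50 (square), and the integrated stress response at -0.47 and -0.02.

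Part of the genes of the integrated stress response were lower in the members. Of 21 measured genes 0 were higher and 8 lower, with a median of -0.47, beside 3.21%, 4.94% and -0.05 for all genes. Relative to UMIs other than *Ins1*, 20 of 21 were at least 1.5-fold lower, with a median of -1.16. For all genes that share was 69.7% and the median -0.74. *Ddit3* itself, limited in both groups by the rule, is not counted in this list and is given only as a description, at -1.42. *Nupr1*, a stress-induced chromatin protein, had a level of 566 in the members and 2314 in the *Ins1*-low cells (-2.03, -2.14 to -1.93), and a median per cell of 52.4 against 532. A single member held 28.5% of the *Nupr1* UMIs of the members. *Ppp1r15a*, which reverses the phosphorylation of eIF2 alpha, was at -1.34 (0.15 in low-*Ddit3* cells), the pseudokinase *Trib3* at -1.31 (-0.11) and *Cebpb* at -1.04. *Asns* (-0.14) and *Phgdh* (-0.05), amino acid synthesis genes of the same response, had intervals that included 0, as had *Aldh18a1* (0.30). The list median in low-*Ddit3* cells was -0.02 with 0 of 12 past 1.5-fold, and *Nupr1* was at -0.13 (-0.45 to 0.19).

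Most measured p53 targets were lower, with 6 of 8 measured genes at least 1.5-fold lower and a median of -0.88. Of all genes 4.94% were at least 1.5-fold lower, and their median was -0.05. *Phlda3* stood at 22.9 against 96.6, *Ccng1* at 107 against 225, *Gadd45a* at -1.03, *Trp53inp1* at -0.97, the cell cycle inhibitor *Cdkn1a* at -0.80 and *Zmat3* at -0.60. In low-*Ddit3* cells 3 could be measured, 1 of them at least 1.5-fold lower, with a median of -0.43. All genes measured there had 1.42% at least 1.5-fold lower and a median of 0.03.

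*Id3*, an inhibitor of basic helix-loop-helix transcription factors, had the largest difference below 0. It was counted with 4 UMIs in 4 members and with 968 UMIs in 95 *Ins1*-low cells, levels of 2.86 and 218 and a log2 ratio of -6.25 (-8.13 to -4.89). Per cell it reached 252 in the members and 2481 in the *Ins1*-low cells, where the median was 0. *Id2*, of the same family, was at 37.9 and 199 (-2.40), and *Smad7*, a feedback inhibitor of TGF-beta signalling, at 10.0 and 69.4 (-2.79). Both were at -0.98 in low-*Ddit3* cells, with an interval that included 0 for *Smad7*. There *Id3* had 3 and 5 UMIs, so its UMIs came almost all from cells with *Ddit3* between 0.05% and 0.25%. *Id3* was also low in WT, at 2.58, and *Id2* at 15.2.

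The others among the 15 lowest were *Hspa1a*, *Hspa1b*, *Pyy*, *Ppy*, *Nupr1*, *Hmox1*, *Phlda3*, *Stbd1*, *Sema6a*, *Ddit3*, *Cox6a2* and *Avpi1*. For 4 of them a single *Ins1*-low cell held most of the UMIs: 82.2% for *Ppy* and 81.0% for *Pyy*, hormones of PP cells, 67.4% for *Hspa1a* and 60.9% for *Hspa1b*, heat shock chaperones. Without the cell with most UMIs in each group, the log2 ratio was -0.16 for *Ppy* and -0.32 for *Pyy*, and -3.26 for *Hspa1a*. *Hspa1b* had 0 UMIs in the members, so no ratio is given for it beyond the counts, 0 and 207. *Hmox1*, the stress-induced haem oxygenase, was at 23.6 and 106 (-2.16), and at 0.38 with an interval that included 0 in low-*Ddit3* cells. Apart from *Hspa1a* and *Hspa1b*, none of the 10 measured heat shock chaperones passed 1.5-fold.

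Transcripts of cytosolic ribosomal proteins differed in a uniform way. Of 77 genes 76 were below 0 and 12 at least 1.5-fold lower, with a median of -0.47. Over all 4741 genes, 2076 were above 0 and 234 (4.94%) at least 1.5-fold lower. Relative to UMIs other than *Ins1* all 77 were at least 1.5-fold lower with a median of -1.16. For all genes that share was 69.7% and the median -0.74. *Rps27l* (-0.79), *Rps28* (-0.76) and *Rpl34* (1040 against 1661, -0.67) stood lowest. Unlike the stress genes, this list kept its difference in low-*Ddit3* cells, with a median of -0.45 and 13 of 76 genes at least 1.5-fold lower. All genes measured there had a median of 0.03 and 1.42% at least 1.5-fold lower. Nuclear-encoded genes of oxidative phosphorylation had a median of -0.13, and 1 of 79, *Cox6a2*, was at least 1.5-fold lower, with a median of -0.11 and 0 of 73 past 1.5-fold in low-*Ddit3* cells. Of 12 measured mitochondrially encoded genes 7 were at least 1.5-fold higher, beside 3.21% of all genes, with a median of 0.67. In low-*Ddit3* cells, however, the median was -0.04, and the rule itself limited the mt- share. *mt-Co2* stood at 8224 and 4270 and *mt-Co1* at -0.16.

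The remaining lists held few differences, where 3.21% of all genes were at least 1.5-fold higher and 4.94% at least 1.5-fold lower. Of 8 measured AP-1 and immediate early genes *Jun* was lower (26.5 against 81.6). Of 19 measured genes on the antioxidant list, *Hmox1* and *Srxn1* (-0.61) were lower. *Txnip* of that list, which encodes the thioredoxin-interacting protein and no antioxidant enzyme, was higher (1.10). Of 7 inflammation genes *B2m*, the light chain of MHC class I, was higher (0.96) and the NF-kappaB inhibitor *Nfkbia* lower (-0.72). Of 7 nuclear and long non-coding RNAs *Snhg11* was at 0.65 and *Snhg12* at -0.60, and *Malat1* at 0.05. Of 7 measured transcription and chromatin regulators that the study names, 0 passed 1.5-fold. 1 of 23 genes normally silenced in beta cells could be measured, at -0.56. Of 8 measured TFIID subunits *Taf15*, an associated factor, was lower (-0.65), and the others did not pass 1.5-fold.

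*Taf4*, the inactivated gene, was counted with 22 UMIs in the members and 63 in the *Ins1*-low cells, levels of 15.7 (9.86 to 23.8) and 14.2 (10.9 to 18.2), and the log2 ratio of 0.15 had an interval from -0.62 to 0.87. The WT cells stood at 12.6 and the 5-week cells at 9.14. Whether these 3′ tags lie in the deleted part is not given in the sources used here, so the *Taf4* count does not tell whether a cell had recombined. At this depth a difference in *Taf4* between the groups within the interval from -0.62 to 0.87 could not be told from 0.

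The levels of several leading genes were ordered by the *Ins1* share on both sides of the limit, and those of others were not. In the 7 classes of *Ins1* share from under 0.25% to 9% and above, which held 72, 70, 48, 59, 32, 28 and 27 cells, the level of *G6pc2* was 51.8, 129, 157, 229, 317, 536 and 600. *Mafa* ran from 284 in the lowest class to 1249 at 4% to 6% and 2152 in the highest class. *Esr1* was less ordered, with 31.8, 69.3, 42.3, 107, 149, 227 and 200, as was *C2cd4b*, with 61.3, 140, 91.1, 208, 159, 342 and 366. *Id3* ran from 316 and 299 in the lowest classes to 6.29 at 4% to 6% and 0 in the highest. *Nupr1* stayed between 2445 and 2861 up to 2%, was 1291 at 2% to 4% and 137 in the highest class. The summed level of ribosomal protein transcripts went from 137780 to 76454, against 86397 in WT. In low-*Ddit3* cells, *G6pc2* had levels of 289, 377, 442 and 579 in cells with *Ins1* under 1%, at 1% to 4%, at 4% to 6% and above, which were 30, 40, 20 and 50 cells, and the ribosomal sum went from 122786 to 77222. *Mafa* in the same classes had 1088, 1714, 1464 and 2158 and *Nupr1* 102, 210, 164 and 138, so neither kept an order there.

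**Figure D4:**
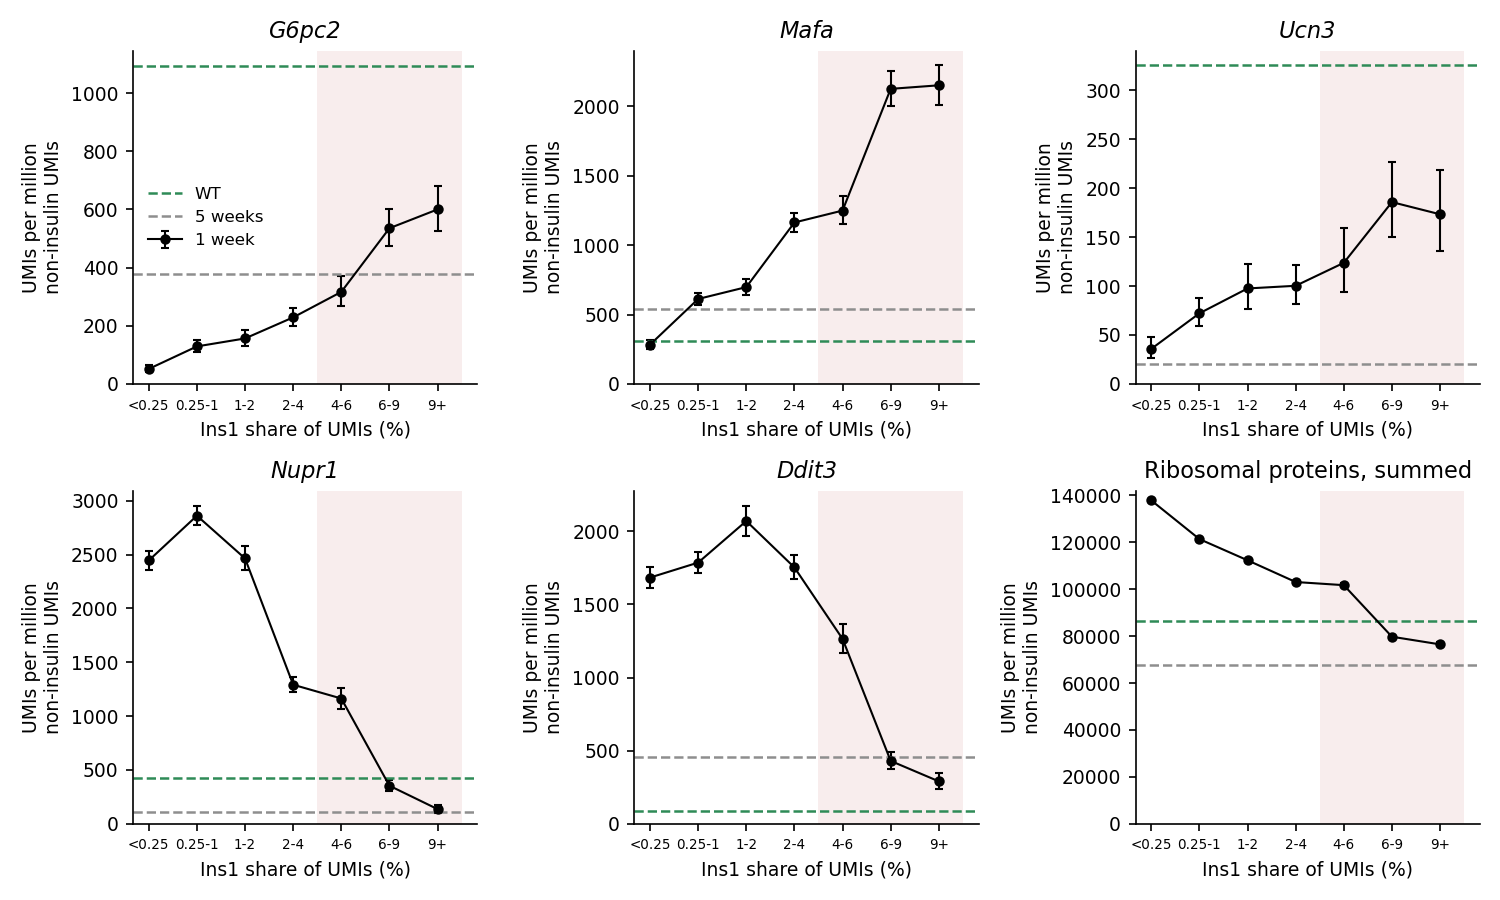
Levels in UMIs per 1000000 non-insulin UMIs by class of *Ins1* share in the 1-week library, summed over the cells of each class, with exact Poisson 95% intervals that for the ribosomal sum are smaller than the points. Shaded classes are the members; dashed lines are the WT (green) and 5-week (grey) cells. *G6pc2* goes from 51.8 to 600, under its WT level of 1093, *Mafa* exceeds its WT level of 311 in every class but the lowest, and *Nupr1* ends at 137.

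The 5-week library gave the same comparison in other mice: 360 cells with *Ins1* at 4% or more against 3960 under 4%, with at least 2000 UMIs. Of 5292 genes 80 (1.51%) were at least 1.5-fold higher and 237 (4.48%) at least 1.5-fold lower. Of the 15 genes highest at 1 week, 14 were above 0 at 5 weeks, 7 with the whole interval above 0, and 1, *Ddc*, at least 1.5-fold (1.26, 0.65 to 1.82), where 46.7% of all tested genes were above 0. Both the 14 and the 7 include *Ins2* (0.19), which the selection limits. *G6pc2* was at 0.29 (0.11 to 0.45), *Ero1lb* at 0.29 (0.18 to 0.40) and *Mafa* at 0.13 (-0.02 to 0.27), much smaller than at 1 week, and *mt-Co2* was below 0 (-0.19). *Slc2a2*, with 15 and 42 UMIs, stood at 2.18 (1.23 to 3.06), and *Ttr* at 1.01 (0.94 to 1.08), close to its 1.03 at 1 week. In low-*Ddit3* cells at 1 week the highest ratio of the 3 measured alpha cell markers, *Ttr* among them, was 0.38. Of the 15 lowest genes 11 were below 0 at 5 weeks, 6 with the whole interval below 0 and 4 at least 1.5-fold. The 6 were *Hmox1*, *Ddit3*, which the selection limits, and *Hspa1a*, *Hspa1b*, *Pyy* and *Ppy*. For the last 4 a single *Ins1*-low cell held most UMIs at 1 week, so these counts are no independent repeat. *Hmox1* was among the 4 at least 1.5-fold lower (-1.49, -2.50 to -0.64), while *Nupr1* (0.07) and *Id3* (0.40, -0.78 to 1.39) were not below 0. The median of the integrated stress response list was -0.29, that of hormones and granule proteins 0.13 with 0 past 1.5-fold, and that of ribosomal proteins -0.07 with 0 past 1.5-fold. Differences between the times were not tested, and the cells compared differed in *Ins1* by less at 5 weeks (medians 4.84% and 1.83%).

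**Figure D5:**
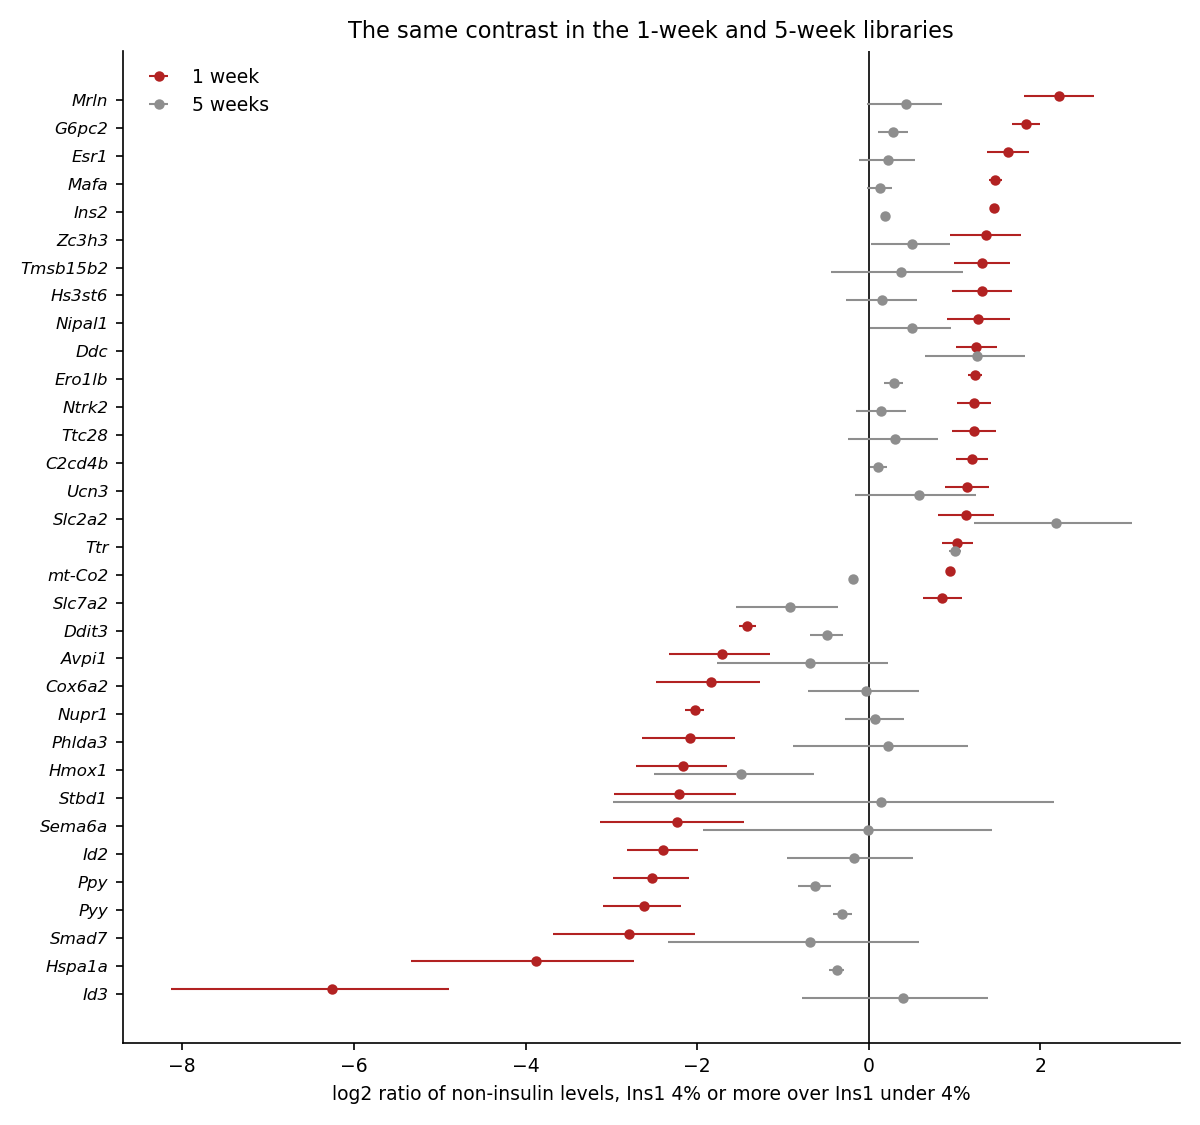
Log2 ratio of levels relative to non-insulin UMIs, *Ins1* at 4% or more over *Ins1* under 4%, with 95% intervals for counting error, in the 1-week (red) and the 5-week library (grey), for the highest and lowest genes at 1 week and 4 further named genes; *Hspa1b* with 0 UMIs in the members is left out. The 5-week ratios lie nearer 0 for most genes. *Ddc* and *Ttr* have nearly the same ratio at both times, and *Slc2a2* lies farther from 0 at 5 weeks. *Slc7a2* lies about as far from 0 on the other side.

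Of the beta cell markers *Ins1*, *Ins2* and *Mafa*, the rule itself set *Ins1* and *Ins2*, so their presence describes the selection. *Mafa* was counted in 83 of the 87 members and in 219 of the 249 *Ins1*-low cells. *Gcg* had a median of 6 UMIs per cell in both groups and *Sst* of 0, and both were limited by the rule. Of 3 measured alpha cell markers *Ttr* (307 against 150) and *Slc7a2* (0.86) were higher in the members and *Gcg* was at 0.11. The summed level of the 9 alpha markers ran from 193 over 848 to 3012 in the members and from 50.6 over 598 to 3738 in the *Ins1*-low cells, with 2 markers at 0 in each group. Delta markers summed to medians of 99.4 and 112 per cell, with highest values of 1345 and 1542. The 1 measured delta marker was *Fam159b*, at -0.51. Acinar markers totalled 173 UMIs in the members and 23 in the *Ins1*-low cells. Their median was 0 in both, and 1 member reached 39788, so 1 barcode carried acinar RNA. Macrophage markers summed to 82 and 109 UMIs, levels of 58.6 and 24.6 with medians per cell of 39.4 and 0. Their summed level was higher in the members, although 5 of the 8 markers had 0 UMIs there, against 1 in the *Ins1*-low cells. Endothelial markers summed to 17 and 24 UMIs, levels of 12.2 and 5.41, also higher in the members. Of these 6 markers, 3 were at 0 in the members and 4 in the *Ins1*-low cells. Mesenchymal markers summed to 1 and 0 UMIs. Red cell markers, of which none was listed for this library, summed to 0. The part of other cell types in the results was not tested. *Neurog3*, the endocrine progenitor factor, had 2 UMIs in each group.

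Depth and sample quality bear on all values. The libraries held between 19472212 and 39408284 UMIs, and the median barcode had 1396 UMIs in WT, 2759 at 1 week and 2467 at 5 weeks, so the members, at 3.79% of the 1-week barcodes (exact 95% interval 3.05 to 4.66), carried 16.3% of its UMIs. The median mt- share was 2.50% in the members and 3.14% in the *Ins1*-low cells. The study's own upper limit of 1500 detected genes would have kept 5 members and 3 *Ins1*-low cells. No doublets were called here, and the study removed doublets from the WT library alone. Leaving out the 10% of cells with most UMIs removed mostly members, and kept 59 of the 87 members and 243 of the 249 *Ins1*-low cells. The log2 ratio of *G6pc2* was then 1.99, of *Mafa* 1.37 and of *Id3* -5.89. The WT and 1-week libraries shared 2 barcodes, the 1-week and 5-week libraries 5 and the WT and 5-week libraries 33, and 3 of the 336 compared cells had a barcode that occurred in another library.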

How the data were processed

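Islet cells were profiled by single-cell RNA-seq, with 1 library for WT, 1 for the *Taf4* mutant at 1 week and 1 at 5 weeks. Deposited as a table per library, the counts of UMIs for each gene in each barcode are not normalised, and the authors made them with CellRanger v3.1 on mm10, with bcl2fastq 2.17.1.14 and Seurat 3.1.4 also named in the processing notes of the submitters. In the WT library alone the authors removed doublets and scaled down to 12000 cells. Members and gene lists were chosen with earlier results of these data known.

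UMIs were summed over the cells of a group and divided by all UMIs other than *Ins1*, or by non-insulin UMIs. The latter scale for every alternative, and leaving out the cell with most UMIs of a gene, were chosen after seeing the data. Exact conditional (ratios), Poisson (levels) and Clopper-Pearson (shares) 95% intervals were computed with Python 3.11.15, numpy 2.4.6, scipy 1.17.1 and pandas 2.3.3 and cover counting error only. Genes with at least 200 UMIs over both groups entered the counts, and a group at 0 was set to a floor of 3 counts. The code was tested on simulated counts. Named genes were the 15 highest and 15 lowest by the interval bound nearer 0 relative to UMIs other than *Ins1*, up to 3 at each end of every list, and genes that the study or the selection names. Other list genes past 1.5-fold were named after their values were seen. WT and 5-week cells met the same limits with at least 2000 UMIs. Depth per cell is given with the results. No test was possible with 1 library per condition. Alternatives covered denominators, the mean over barcodes, thinning to 8000 UMIs, the minimum count, the deepest cells and each selection limit.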

Additional observations from a re-analysis of the deposited data

Results flagged for a closer look

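*Slc7a2*, a cationic amino acid transporter, was flagged because cells with *Ins1* at 4% or more differed from cells with *Ins1* under 4% in opposite directions at the 2 times, relative to non-insulin UMIs. At 1 week its level was 179 in the members and 98.7 in the *Ins1*-low cells (log2 ratio 0.86, 0.63 to 1.08), and in cells with *Ddit3* under 0.05% the ratio was 0.13 (-0.16 to 0.42). At 5 weeks it had 26 and 627 UMIs, levels of 37.9 and 71.9, and a log2 ratio of -0.92 (-1.55 to -0.36). The difference between the times was not tested.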

How the results depend on the processing

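No paired analysis was possible because each condition is 1 library, and no replicate could be left out. Below, counts relative to UMIs other than *Ins1* (9 higher, 3306 lower at 1.5-fold) come first and those relative to non-insulin UMIs (152 and 234) second. All UMIs as denominator gave 5 higher. Thinning to 8000 UMIs gave 5 and 1068, then 51 and 131. A minimum of 50 UMIs gave 34 and 5627, then 576 and 622, and one of 1000 UMIs 3 and 689, then 28 and 47. These 3 settings changed how many genes were measured. An *Ins1* limit of 3% gave 155 lower on the second scale. A limit of 6% left 55 members and gave 402 lower, and 6% against under 2% left 55 members and gave 14 higher on the first scale and 400 lower on the second. *Ddit3* under 0.05% gave 0 and 855, then 30 and 26, of 1834 genes, and *Ins2* at 20% or more 1782 lower. At most 1500 detected genes left 5 members against 3 cells, with 3 and 18, then 4 and 6, and gave no values for single genes. The mean over barcodes, leaving out the deepest 10%, a floor of 15000 UMIs and mt- under 10% kept every count within 1.5 times.

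Since the scales differ by 0.69, 1988 of 4741 genes were above 0 relative to non-insulin UMIs and below 0 relative to UMIs other than *Ins1*, and 641 of these were at least 1.5-fold lower on the latter. Among the named genes past 1.5-fold on the scale in question, signs turned on the non-insulin scale for *Chgb* (0.016), *Vamp2* (0.044), *Egr1* (0.041), *Btg2* (0.020), *Hspd1* (0.047), *Rpl7l1* (0.0060) and *Malat1* (0.049), and for *Egr1* at an *Ins1* limit of 6% (0.056). With *Ddit3* under 0.05% they turned for *Mafa* (-0.10), *Esr1* (-0.40), *Tmsb15b2* (-0.018) and *Syt4* (0.11) relative to UMIs other than *Ins1*, and for *Pdx1* (-0.0018), *Derl1* (0.14), *Hspa5* (0.19) and *Taf15* (0.26) relative to non-insulin UMIs. Apart from the denominators and the fewer genes measured, the cause was not tested. A gene under 200 UMIs in a setting was left out of these counts and signs. Depth limits genes such as *Taf4* and *Trpm5*, with under 100 UMIs over both groups.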
